A study of Mus musculus with 20 samples.

Results

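Gene expression was compared between centrocytes that carried 1 Myd88 L252P allele and centrocytes wild type for Myd88. The comparison used 10 of the 20 libraries of the series, chosen by their titles: 5 control centrocyte libraries and 5 Myd88 L252P centrocyte libraries, called mutant libraries here. The other 10 libraries were centroblasts of the same genotypes. Centrocytes had been sorted as B220+ FAS+ GL7+ cells that were CXCR4- and CD86+, and centroblasts as CXCR4+ CD86- cells of the same B220+ FAS+ GL7+ population. Every mouse carried 1 copy of Cgamma1Cre, a Cre recombinase driven by the C gamma 1 immunoglobulin locus and active in B cells that transcribe this locus, as germinal centre B cells do. Controls were wild type for Myd88 (Myd88L252P:WT) and mutants heterozygous for the allele (Myd88L252P:+/-). Age, strain, immunization and the tissue taken were not given in the labels, nor whether each library came from a separate mouse, so the p-values measure the spread between these libraries, which may be technical in part.

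MYD88 is the adaptor that couples receptors of the Toll-like and interleukin-1 families to IRAK kinases, TRAF6 and NF-kB. The L252P substitution of the mouse protein is the counterpart of a recurrent substitution in human lymphomas of B cell origin, which lets the adaptor assemble without a ligand. Centrocytes are the light zone cells of the germinal centre: they present antigen to T follicular helper cells and then die, return to the dark zone to divide, or leave as memory B cells or plasma cells. Positioning depends on CXCR4, which holds cells in the dark zone, and on G protein signals that RGS proteins dampen.

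Values were TPM, a length-corrected transcript abundance that sums to 1 fixed total per library. TPM keeps no read depth, so the depth behind each value is unknown and no counting interval is given. Between 13513 and 14092 genes were above 0 in a centrocyte library. Each difference is a log2 fold change on log2(TPM + 1), mutant minus control, with its standard error (SE), which understates changes of genes near 1 TPM. A gene was called where its adjusted p was under 0.05 by limma (5 against 5 libraries, 2-sided, Benjamini-Hochberg over all genes tested).

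The defining genes of the sorted population were present in all 10 libraries. Bcl6, the master repressor of the germinal centre, lay between 237 and 366 TPM and the B cell gene Ms4a1 between 3297 and 4525. Presence did not mean equal levels. The sum of 11 germinal centre B cell markers was 9939 to 10800 TPM in controls and 8679 to 9862 TPM in mutants, without overlap. Of these markers 10 had a change below 0 and 1, Rgs13, was called lower. The part of this shift in the results was not tested. The light zone gene Cd83 lay between 675 and 1043 TPM here and between 189 and 349 in centroblasts, while Cxcr4 lay between 147 and 324 here and between 234 and 622 in centroblasts. Markers of other cells were mixed. The T cell sum was 429 to 538 TPM in controls and 414 to 489 in mutants, with 0 of 5 tested members called: most of it came from Lck (174 to 289 TPM) and Cd2 (200 to 255 TPM), while Cd3e, Cd3d and Cd3g did not exceed 2.13 TPM. The NK cell sum was 2.76 to 9.04 TPM in controls and 3.40 to 10.1 TPM in mutants. Of its 2 tested members Prf1, which encodes perforin, was called higher (change 0.95, adjusted p = 0.0468 by limma), and the defining gene Ncr1 did not exceed 0.602 TPM. The collagen gene Col1a1 did not exceed 0.142 TPM. Summed levels of 10 erythroid markers were 42.7 to 273 TPM in controls and 233 to 581 in mutants, nearly all from Beta-s, a globin gene. Of 4 tested erythroid markers 2 were called, both higher in mutants, among them Alas2, which starts haem synthesis in red cell precursors. The sum of 19 macrophage, monocyte and neutrophil markers was 208 to 393 TPM in controls and 178 to 412 in mutants, with 0 of 12 tested members called. Eosinophil markers summed to 3.32 to 9.70 TPM in controls and 7.19 to 60.8 TPM in mutants, with 0 of 2 tested members called. Most of it was Prg2, a granule protein gene, at 0.694 to 3.14 TPM in controls and 5.52 to 59.4 TPM in mutants, without overlap; its change of 2.53 was not called (adjusted p = 0.0674 by limma), while the 20-library fit called 1 eosinophil marker higher. The granule gene Epx was at or under 0.216 TPM in every library. The part of erythroid, NK and eosinophil RNA in the results was not tested.

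The allele was accompanied by more rises than falls. Of 11115 genes tested, 302 were called (2.72%), 198 higher in mutant centrocytes (1.78%) and 104 lower (0.936%). Rises were larger than falls: 61 called genes rose by at least 1 on the log2 scale and 3 fell by at least 1, and the median change was 0.69 among the called rises and -0.40 among the called falls. The rises were in less abundant genes, with a median control level of 16.6 TPM against 105 TPM for the falls and 30.9 TPM for all genes tested. The median change of all genes was 0.02. In 239 of the 302 genes the 2 groups of 5 did not overlap, as in 514 of all genes tested (4.62%; mutants above in 2.61% and below in 2.02%). The number called depended on single libraries: it was 56 without control library 4, 70 without control library 5, 86, 99 and 94 without mutant libraries 2, 1 and 3, and 179 without control library 1. In the 10 fits that each left out 1 library, called reduced fits below, 52 of the 302 genes passed every time, 30 higher and 22 lower. A fit that took its spread from all 20 libraries called 137 genes (1.2%), of which 117 were among the 302. List counts given below depended on this too. The 20-library fit called 6 interferon gamma GTPases (8 in the 10-library fit), 1 class I gene (5), 4 T-bet and CD11c genes (6), 0 ribosome biogenesis genes (6), 5 immediate early genes (11), 2 mitotic genes (8) and 1 germinal centre identity gene (3). Every reduced fit kept 4 immediate early genes, 1 gene of each of the interferon gamma, type I interferon, class I, T-bet and mitotic lists, and 0 of the memory, S100 and ribosome biogenesis lists.

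**Figure D1:**
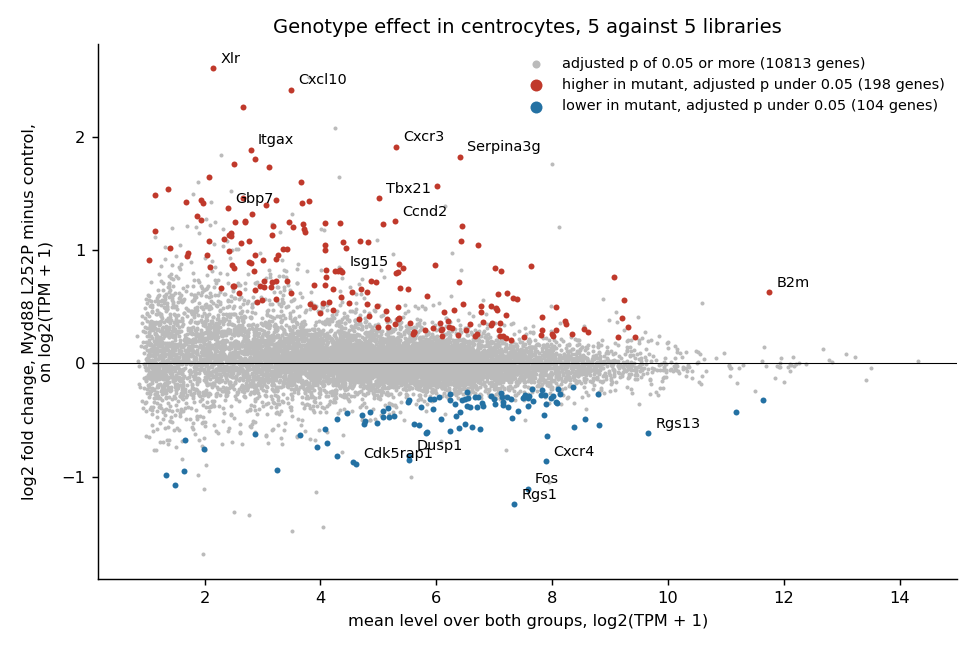
Log2 fold change in centrocytes (vertical axis, on log2(TPM + 1)) against the mean level over both groups (horizontal axis, log2(TPM + 1)) for 11115 genes, each a point. The 198 called rises (red) spread to larger changes and lower levels than the 104 called falls (blue), and B2m stands alone as a called rise among the most abundant genes.

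Myd88 itself (chr9:119335934-119340018, minus strand) was slightly higher in mutants. It was at 77.2, 70.6, 68.1, 77.3 and 78.9 TPM in control libraries 1 to 5 and at 82.8, 89.0, 94.2, 89.3 and 88.6 TPM in mutant libraries 1 to 5. The groups did not overlap, with a log2 fold change of 0.25 (SE 0.06, adjusted p = 0.0405 by limma). The call held in 0 of 10 reduced fits, and the 20-library fit gave an adjusted p of 0.328. TPM per gene does not tell the 2 alleles apart, so this value checks neither genotype label nor allele use. Within 10 Mb of Myd88, 3 of 85 tested genes were called: Myd88 itself, Nme6 and Gpd1l. This share (3.53%) was near the 2.72% of all genes tested. Of the other surface proteins of the sort, Ptprc, which encodes B220, Fas and Cd86 were not called (adjusted p of 0.289, 0.147 and 0.123).

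Genes induced by interferons were among the rises. Of 20 tested members of the interferon gamma GTPase list, 8 rose and 0 fell (Gbp2, Gbp5, Gbp7, Ifi47, Igtp, Iigp1, Irgm1 and Tgtp2), with a median change of 0.76 over the 20 against 0.02 over all genes. Median-of-ratios scaling, which moved the median of all genes to -0.01, called 13 of them, all higher. GBP and IRG proteins are GTPases that attack vacuoles holding pathogens. Iigp1 reached 1 TPM in every mutant library but in control library 2 alone (1.91 TPM). It thus entered the test mainly through the group in which it was high. Gbp7 was at 1.62, 2.94, 1.52, 1.47 and 1.89 TPM in controls 1 to 5 and at 6.33, 9.68, 9.03, 3.58 and 5 TPM in mutants 1 to 5, a change of 1.37 (SE 0.23, adjusted p = 0.00949 by limma) that passed in all 10 reduced fits. Even the lowest mutant library, the fourth, was above every control. Igtp was at 27.5 ± 4.11 TPM in controls and 52.3 ± 13.5 TPM in mutants (SD, n = 5 each), a change of 0.87. Tgtp2, whose close copy Tgtp1 makes its value uncertain, changed by 1.46. In the type I interferon list 4 of 38 members rose and 0 fell, among them Isg15, Bst2 and Zbp1, with a list median of 0.29. Isg15, a ubiquitin-like modifier, was at 13.5, 18.9, 14.7, 12.3 and 11.5 TPM in controls and at 25.8, 24.6, 28.5, 22.2 and 25.9 TPM in mutants. Its groups were well apart, and its change of 0.81 (SE 0.12, adjusted p = 0.00536 by limma) passed in all 10 reduced fits.

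In the MHC class I and immunoproteasome list 5 of 20 tested members rose and 0 fell, and all 20 had a change above 0, against 54.8% of all genes. The 5 were B2m, Psmb9, Psmb10, Psme1 and Psme2. B2m, the light chain of every class I molecule, was at 2690 ± 276 TPM in controls and 4199 ± 786 TPM in mutants (SD, n = 5 each), a change of 0.63 (SE 0.12, adjusted p = 0.0233 by limma). Mutant libraries 1 and 2 were highest and mutant library 4 was closest to the controls. Psmb10, a catalytic subunit of the immunoproteasome, was tighter, at 193 to 214 TPM in controls and 232 to 255 TPM in mutants, a change of 0.29 that passed in all 10 reduced fits. In the 20-library fit Psmb10 was not called (adjusted p = 0.135 by limma). The MHC class II list had 0 of 18 members called and a median of 0.03.

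Promoters of these genes are shown because many of the called interferon and class I genes hold a short sequence. The share among uncalled members of these lists was not computed, so it is not known whether the called members stand apart from them. The interferon-stimulated response element, a site bound by IRF factors, was searched as GAAANNGAAA on both strands from 250 bases before to 50 bases after each annotated start (RefSeq, GRCm38.p6, the assembly of mm10). It was in the window of 341 of 8832 tested genes that have one (3.86%), of 23 of 149 genes called higher (15.4%), of 5 of 81 called lower (6.17%) and of 10 of 14 genes called higher in the 3 interferon and class I lists (71.4%). Those 10 were B2m, Bst2, Gbp2, Gbp5, Gbp7, Igtp, Irgm1, Isg15, Psme1 and Tgtp2, and the 4 without it were Ifi47, Psmb9, Psmb10 and Psme2. Myd88 also held it. The 250 bases before the start of 4 of these genes follow, 5′ to 3′ on the gene's strand, with the matching letters in capitals. Isg15 lies at chr4:156200819-156201068 (minus strand) with 3 overlapping matches, Gbp7 at chr3:142530086-142530335 (plus), B2m at chr2:122147437-122147686 (plus) and Myd88 at chr9:119340019-119340268 (minus). In Gbp7 the match is on the other strand.
Isg15: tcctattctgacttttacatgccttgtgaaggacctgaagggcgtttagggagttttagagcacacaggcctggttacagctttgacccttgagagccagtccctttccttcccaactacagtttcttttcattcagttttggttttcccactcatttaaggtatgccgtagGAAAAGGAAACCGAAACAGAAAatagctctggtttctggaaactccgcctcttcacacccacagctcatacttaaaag
Gbp7: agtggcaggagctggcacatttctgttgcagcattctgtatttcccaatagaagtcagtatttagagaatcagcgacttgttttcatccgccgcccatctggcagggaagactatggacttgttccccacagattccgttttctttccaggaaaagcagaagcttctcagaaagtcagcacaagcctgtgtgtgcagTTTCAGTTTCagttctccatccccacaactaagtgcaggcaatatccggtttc
B2m: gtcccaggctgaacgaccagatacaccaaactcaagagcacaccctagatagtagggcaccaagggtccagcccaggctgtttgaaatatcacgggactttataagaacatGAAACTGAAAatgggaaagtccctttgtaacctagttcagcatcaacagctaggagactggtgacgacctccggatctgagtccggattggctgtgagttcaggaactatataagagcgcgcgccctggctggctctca
Myd88: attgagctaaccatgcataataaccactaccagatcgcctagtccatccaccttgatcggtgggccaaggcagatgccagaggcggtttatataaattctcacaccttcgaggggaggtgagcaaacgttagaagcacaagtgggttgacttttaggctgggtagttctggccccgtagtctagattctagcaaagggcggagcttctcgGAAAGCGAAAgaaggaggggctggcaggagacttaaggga
A match describes the letters only and does not show that a factor was bound.

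Some genes of the T-bet and CD11c B cell programme, known from B cells driven by Toll-like receptors and interferon gamma, were also higher. Of 17 tested members 6 rose and 0 fell (Itgax, Tbx21, Cxcr3, Itgam, Ly6c2 and Itgb2), with a list median of 0.47. Itgax, which encodes CD11c, was at 2.09, 2.74, 1.71, 0.952 and 1.16 TPM in controls and at 6.59, 16.8, 17.2, 4.23 and 6.13 TPM in mutants, a change of 1.89 (SE 0.34, adjusted p = 0.0187 by limma). Tbx21, which encodes the transcription factor T-bet, was at 19.2, 30.9, 12.5, 11 and 10.6 TPM in controls and at 41.1, 41.7, 72.5, 38.3 and 35.1 TPM in mutants. Control library 2 came closest to the mutants and mutant library 3 stood above the rest. Its change was 1.46 (SE 0.30, adjusted p = 0.0345), called in 3 of 10 reduced fits. Cxcr3, the receptor for CXCL9 and CXCL10, followed the same libraries: 22.2, 37.7, 8.58, 7.89 and 10.4 TPM in controls and 55.9, 56.6, 95.1, 40.9 and 49.2 TPM in mutants, a change of 1.91 (adjusted p = 0.0489 by limma) called in 1 of 10 reduced fits. Itgam, which encodes CD11b, was at 1.08 ± 0.264 TPM in controls and 4.24 ± 1.39 TPM in mutants (SD, n = 5 each), with a change of 1.30 that passed in all 10. CD11c and CD11b also mark myeloid cells. Beside this group, the sum of 19 macrophage, monocyte and neutrophil markers had a median of 251 TPM in controls and 352 TPM in mutants, with overlapping ranges. Of its 12 tested members 5 had a change above 0 and 7 below 0, and 0 were called. Mpeg1 had medians of 52.7 and 122 TPM in controls and mutants, Cd68 33.0 and 43.7, Emr1 8.56 and 12.8, Lyz2 25.2 and 27.9, Csf1r 13.9 and 7.56, and C1qa 20.8 and 13.7. The part of myeloid RNA in the result was not tested.

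Some memory, homing and adhesion genes moved as well. The memory precursor list had 5 of 26 members higher (among them Ccr6, Cd38, Cxcr3 and Tbx21) and 1 lower, Klf6, with a median of 0.33. Cd38, an ectoenzyme that consumes NAD, was at 105 ± 20.6 TPM in controls and 160 ± 21.2 TPM in mutants (SD, n = 5 each), a change of 0.61 (SE 0.12, adjusted p = 0.0263 by limma) called in 4 of 10 reduced fits. The integrin and adhesion list had 5 of 23 higher (among them Itgam, Itgax, Itgb2 and Selplg) and 1 lower, Icam2. Spn, which encodes CD43, rose from 29.5 ± 4.96 to 54.1 ± 10.2 TPM (SD, n = 5 each) and passed in all 10 reduced fits. Cd38 and Ccr7 are also markers of naive and follicular B cells, and Spn, Itgam and Ahnak of marginal zone and B1 cells. Summed over 12 genes the naive and follicular markers were 949 to 1475 TPM in controls and 1257 to 1450 TPM in mutants, with 3 of 12 higher. Summed over 14 genes the marginal zone and B1 markers were 675 to 1059 TPM in controls and 833 to 1251 TPM in mutants, with 3 of 14 higher. Their part in these results was not tested. In sorted bulk cells a larger share of such cells and more RNA per cell cannot be told apart.

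Small cytoskeletal and calcium-binding proteins, serpins and glutathione transferases gave further rises. The S100, annexin, galectin and LY6 list had 7 of 26 higher and 0 lower (Ahnak, Anxa4, Capg, Lgals1, Ly6c2, S100a6 and S100a10), with 25 of 26 members above 0. Capg, an actin-capping protein, rose from 140 ± 35.5 to 254 ± 49.6 TPM (SD, n = 5 each). The serpin and glutathione transferase list had 6 of 19 higher and 0 lower. Serpina3g, an inhibitor of cysteine proteases, was at 24.5, 59.8, 36.0, 28.6 and 30.9 TPM in controls and at 154, 198, 143, 68.5 and 97.7 TPM in mutants, a change of 1.83 (SE 0.32, adjusted p = 0.0246 by limma). Serpina3f, its neighbour on chromosome 12, was at 1.41 ± 0.439 TPM in controls and 7.95 ± 4.63 TPM in mutants (SD, n = 5 each) and passed in all 10 reduced fits. Both belong to a cluster of near-identical copies, so reads could have been shared among them. Serpinb9, an inhibitor of granzyme B, changed by 0.95. Gstt1 and Gstt2, which conjugate glutathione to small molecules, changed by 1.57 and 0.81. Of the 10 reduced fits, 2 called Gstt1, 3 called Capg, whose groups overlapped, and 4 called each of Gstt2, Serpina3g and Serpinb9.

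The remaining leading rises had varied roles. Xlr, a lymphocyte gene of a multicopy X-linked family, was at 0 TPM in controls 1, 3 and 5 and at 0.213 and 0.464 TPM in controls 2 and 4. In mutants 1 to 5 it was at 12.7, 4.46, 9.5, 4.36 and 2.56 TPM, the largest called rise (2.61, SE 0.31, adjusted p = 0.00165 by limma). Xlr reached 1 TPM in the 5 mutants only, so it entered the test through the group in which it was high. It was called in the 5 reduced fits that left out a control and was not tested in the 5 that left out a mutant. Ffar2, a receptor for short-chain fatty acids, was at 6.54 ± 1.82 TPM in controls and 19.2 ± 3.64 TPM in mutants (SD, n = 5 each), a change of 1.44 that passed in all 10. Tmem154 changed by 1.60, Fam101a by 1.44 and Bhlhe41, a transcriptional repressor active in B1 cells, by 1.42. The last 2 were each called in 3 of 10 reduced fits.

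**Figure D2:**
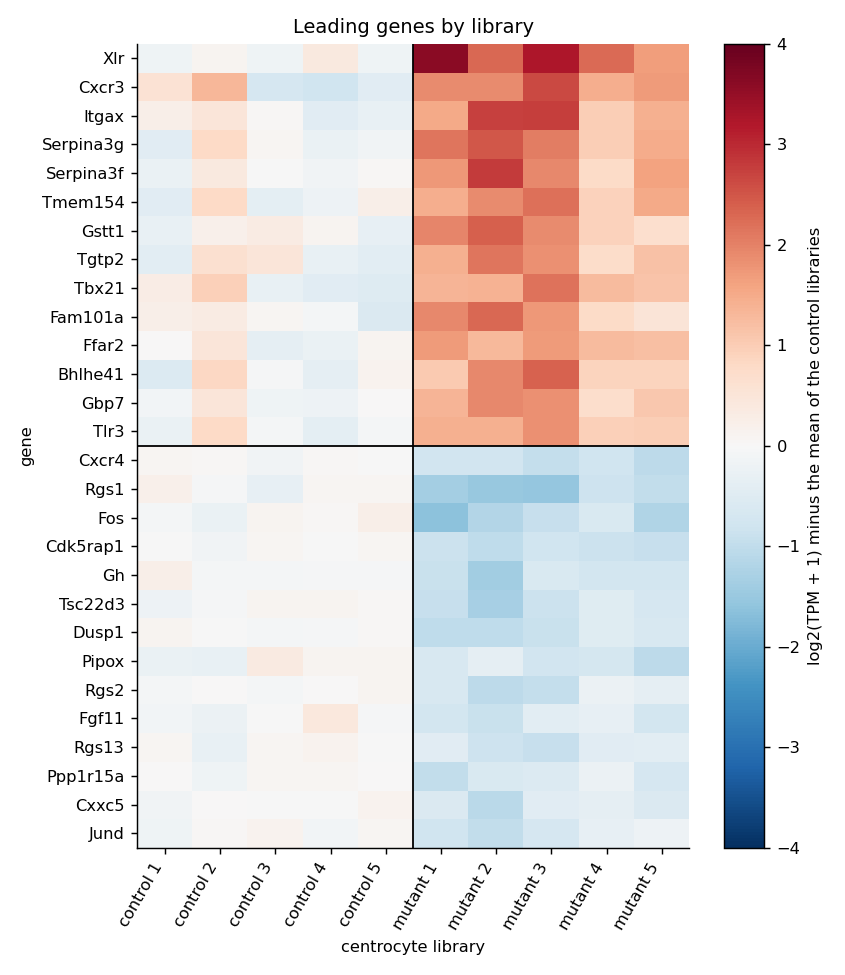
Level of the 14 largest called rises and falls each (rows), among genes chosen to have no overlap of the groups and at least 5 TPM in a group, in the 10 centrocyte libraries (columns), as log2(TPM + 1) minus the mean of the 5 controls (colour, red above and blue below 0). Control library 2 is the reddest control for most rises, and mutant libraries 4 and 5 are paler than mutants 1 to 3 for most genes.

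A few genes of the NF-kB machinery and 1 of the Toll-like receptor list were called higher. Over all genes tested 1.78% were called higher and 0.936% lower. In the list of NF-kB subunits and feedback genes 3 of 32 were higher and 0 lower. Of these 32, 24 had a change above 0 (75%, against 54.8% of all genes), with a median of 0.03. Nfkbia, the IkB alpha inhibitor that NF-kB induces, was at 186, 191, 210, 183 and 198 TPM in controls and at 264, 290, 262, 237 and 240 TPM in mutants, a change of 0.41 (SE 0.06, adjusted p = 0.00536 by limma) that passed in all 10 reduced fits. Its groups did not overlap, but the 20-library fit did not call it (adjusted p = 0.553 by limma). Nfkb2 and Traf1 changed by 0.49 and 0.29, while the feedback gene Tnfaip3 had a change of 0.11 (adjusted p = 0.733). Of 25 tested NF-kB targets 3 rose (Cxcl10, Tnf and Cd40) and 1 fell, Cd69, and 15 had a change above 0 (60%). In the Toll-like receptor list 1 of 31 rose, Tlr3, the endosomal receptor for double-stranded RNA that signals through TRIF instead of MYD88, from 3.11 ± 1.57 to 9.01 ± 2.52 TPM (SD, n = 5 each). Tlr7 and Tlr9, the nucleic acid receptors that do use MYD88, had changes of 0.83 and 0.34 and were not called (adjusted p of 0.0978 and 0.235).

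Cytokine genes and light zone activation genes rose in part. Cxcl10, the interferon-induced ligand of CXCR3, was at 2.55, 5.41, 1.21, 0.653 and 1.94 TPM in controls and at 15.5, 22.6, 36.6, 5.38 and 10.4 TPM in mutants. Mutant library 4 was level with control library 2, and the change of 2.42 (SE 0.49, adjusted p = 0.0345 by limma) was called in 3 of 10 reduced fits. Il27, a subunit of a cytokine that acts on T cells, was at 0.350 ± 0.450 TPM in controls and 2.82 ± 0.707 TPM in mutants (SD, n = 5 each) and passed in all 10. Il27 reached 1 TPM in every mutant library but in control library 5 alone (1.10 TPM). It thus entered the test mainly through the group in which it was high. Among cytokine receptors and JAK-STAT genes 4 of 35 rose and 0 fell, among them Batf, Il2rb and Il27ra. Batf, an AP-1 family factor of activated B cells, was at 62.3 ± 5.27 TPM in controls and 104 ± 16.8 TPM in mutants, and Il2rb, a receptor chain for interleukins 2 and 15, at 8.63 ± 1.38 and 23.2 ± 9.70 TPM. The light zone list split, with 5 of 26 higher (Batf, Ccnd2, Cd40, Nfkbia and Traf1), 2 lower (Cd69 and Egr1) and a median of 0.00. Several of these were counted in other lists too. Nfkbia and Traf1 are in the NF-kB feedback list, Cd40 and Cd69 among NF-kB targets and Batf among JAK-STAT genes. Ccnd2, the D cyclin induced by B cell activation, was at 16.2, 23.1, 27.7, 21.7 and 20.1 TPM in controls and at 44.6, 66.7, 74.6, 40.5 and 44.4 TPM in mutants, a change of 1.26 (SE 0.18, adjusted p = 0.00536) that passed in all 10 reduced fits. It was just missed by the 20-library fit (adjusted p = 0.0507 by limma). Cd40, the receptor for T cell help, was at 144 TPM in controls and 167 TPM in mutants, a change of 0.21 (adjusted p = 0.0405 by limma). It was called in 1 of 10 reduced fits and not in the 20-library fit (adjusted p = 0.171 by limma).

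In the MYC and ribosome biogenesis list 6 of 40 tested members rose (Ddx21, Fbl, Gnl3, Ncl, Nolc1 and Srm) and 0 fell, and 39 had a change above 0, with a median of 0.21. Gnl3, a nucleolar GTPase, was at 113, 110, 113, 120 and 91.9 TPM in controls and at 137, 188, 164, 148 and 129 TPM in mutants, a change of 0.47 (SE 0.10, adjusted p = 0.0267 by limma). Srm, the spermidine synthase, changed by 0.45. Myc itself had a change of 0.20, about the list's median, and was not called (adjusted p = 0.298). Of 79 cytosolic ribosomal proteins 0 were called, with a median of -0.01. The nucleotide and folate list had 3 of 26 higher (Atic, Gart and Shmt1) and 1 lower, Prps2. The unfolded protein response list had 2 of 31 higher, Hsp90b1 and Asns, and the plasma cell list 4 of 24 higher (Sub1, Fam46c, Ppapdc1b and Zbp1). Prdm1, which drives plasma cell fate, was at 4.29, 4.58, 7.01, 3.49 and 3.81 TPM in controls and at 17, 22.4, 15.7, 4.92 and 5.83 TPM in mutants. Mutant libraries 1 to 3 were high and 4 and 5 lay within the controls, and the change of 1.16 was not called (adjusted p = 0.126). Irf4 was not called either (adjusted p = 0.530).

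The leading falls were immediate early genes and regulators of chemokine signalling. Of 37 tested members of the immediate early and stress list 11 fell and 0 rose: Fos, Rgs1, Tsc22d3, Dusp1, Rgs2, Ppp1r15a, Jund, Zfp36, Egr1, Dusp2 and Klf6. The list median was -0.27. Fos (chr12:85473890-85477274), an AP-1 subunit transcribed within minutes of stimulation, was at 241, 213, 274, 263 and 299 TPM in controls and at 81.6, 112, 135, 169 and 111 TPM in mutants. The highest mutant library, the fourth, was below every control, and Fos fell by 1.11 on the log2 scale (SE 0.17, adjusted p = 0.00949 by limma), in all 10 reduced fits. Dusp1, a phosphatase that switches off MAP kinases, was at 57.9 ± 3.11 TPM in controls and 32.8 ± 5.54 TPM in mutants (SD, n = 5 each), a change of -0.81. Tsc22d3, the glucocorticoid-induced leucine zipper, changed by -0.85, and Jund by -0.60. Not every member moved: Egr2 and Egr3, chosen here after their values were seen, had changes of -0.03 and 0.04.

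In the chemokine receptor, positioning and RGS list, 4 of 25 fell (Cxcr4, Rgs1, Rgs2 and Rgs13) and 3 rose (Ccr6, Ccr7 and Cxcr3). Cxcr4 (chr1:128588199-128592299) was at 324, 311, 277, 312 and 298 TPM in controls and at 179, 180, 157, 174 and 147 TPM in mutants. It had the smallest adjusted p of all genes (5.47e-05 by limma; change -0.86, SE 0.07). Both genotypes had been sorted as CXCR4- by surface protein, and its mRNA was still measured in every library. Rgs1 (chr1:144244669-144249104), which dampens chemokine receptor signals, was at 259, 220, 179, 238 and 237 TPM in controls and at 87.5, 77.8, 75.8, 126 and 114 TPM in mutants, the largest called fall (-1.25, SE 0.15, adjusted p = 0.00239). Rgs13 (chr1:144137386-144177372), an RGS gene characteristic of germinal centre B cells, was at 1018, 782, 1029, 1077 and 957 TPM in controls and at 713, 541, 510, 701 and 722 TPM in mutants, a change of -0.62. Neither Rgs1 nor Rgs13 was called in the 20-library fit (adjusted p of 0.158 and 0.152 by limma). Rgs2 (chr1:143999338-144004149) changed by -0.64 but was called in 2 of 10 reduced fits. Ccr6 changed by 1.08 and Ccr7 by 1.02, each with overlapping groups.

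**Figure D3:**
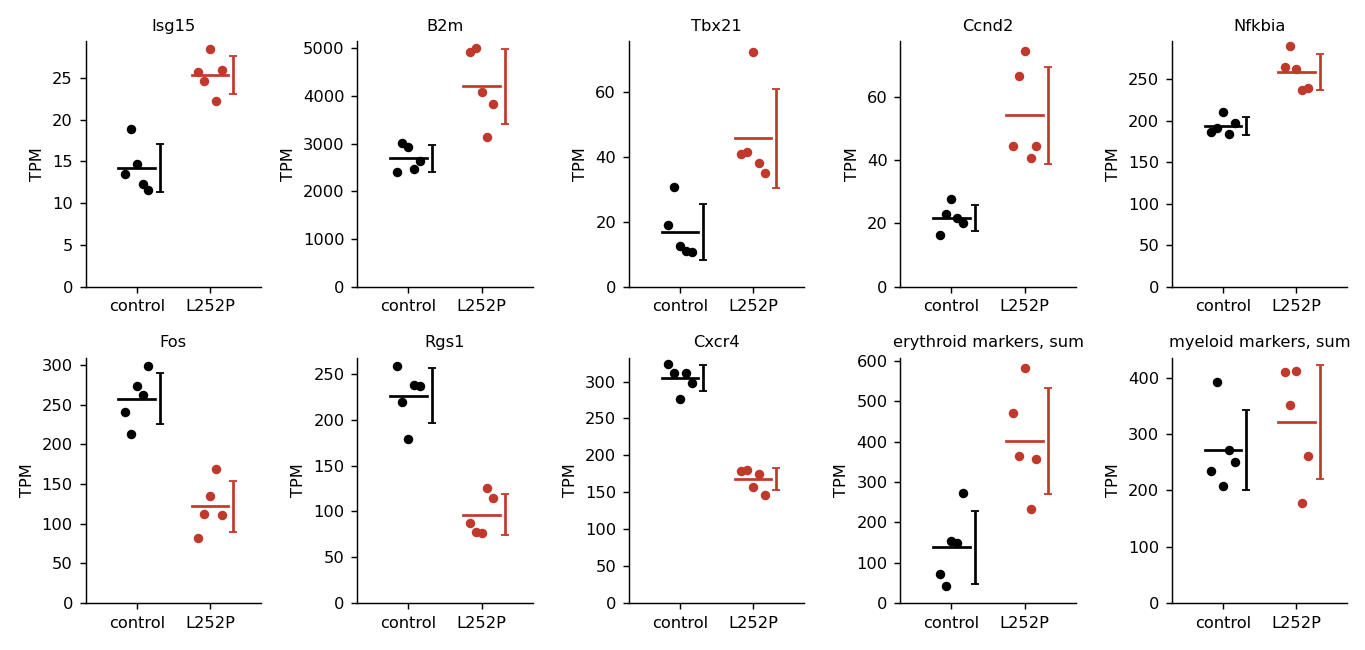
TPM in each centrocyte library (points; black control, red Myd88 L252P; line, mean; bar, SD) for 8 genes and for the summed erythroid and myeloid markers. The groups do not overlap in the 8 genes, while the erythroid sums (42.7 to 273 and 233 to 581 TPM) and the myeloid sums (208 to 393 and 178 to 412 TPM) do.

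Of 42 tested G2 and M phase genes 8 fell and 0 rose, and 41 had a change below 0, with a median of -0.26. The 8 were Cdc20, Cdc25b, Cdca3, Kif23, Nek2, Nusap1, Plk1 and Ube2c. Cdc25b, a phosphatase that starts mitosis, was at 172, 182, 159, 161 and 177 TPM in controls and at 132, 136, 130, 136 and 118 TPM in mutants, a change of -0.38 (SE 0.06, adjusted p = 0.00536 by limma) that passed in all 10 reduced fits. Cdc20, an activator of the anaphase-promoting complex, was at 193 ± 25.9 TPM in controls and 144 ± 11.4 TPM in mutants (SD, n = 5 each). The 42 S phase and replication genes had 0 members called and a median of 0.04.

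The promoters of the mitotic genes are shown for the cell cycle homology region, the element through which the DREAM and MuvB complexes time genes of late cell cycle. Searched as TTTGAA or TTCGAA on both strands, it was in the windows of 6 of these 8 genes (75%; all but Nek2 and Nusap1), of 25 of 81 genes called lower (30.9%), of 21 of 149 called higher (14.1%) and of 1484 of 8832 tested genes (16.8%). It was not limited to falls. Of the 14 genes called higher in the interferon and class I lists, 6 also held it (42.9%): B2m, Gbp2, Gbp5, Ifi47, Igtp and Irgm1. The last letters of this region can be shared with an interferon-stimulated response element. Its share among uncalled members of the G2 and M phase list was not computed. Cdc20 lies at chr4:118437344-118437593 (minus strand) and Ube2c at chr2:164769679-164769928 (plus strand, match on the other strand), printed as above with the match in capitals.
Cdc20: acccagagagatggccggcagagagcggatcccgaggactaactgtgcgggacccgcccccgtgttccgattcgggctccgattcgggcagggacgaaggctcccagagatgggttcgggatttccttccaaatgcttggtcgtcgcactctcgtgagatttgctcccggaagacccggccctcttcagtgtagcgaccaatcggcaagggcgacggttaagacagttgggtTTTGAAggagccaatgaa
Ube2c: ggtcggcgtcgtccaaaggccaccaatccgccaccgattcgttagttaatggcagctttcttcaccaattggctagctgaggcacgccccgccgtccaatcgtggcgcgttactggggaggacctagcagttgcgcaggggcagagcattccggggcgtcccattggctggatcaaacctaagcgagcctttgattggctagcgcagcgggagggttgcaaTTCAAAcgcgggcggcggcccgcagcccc
The other elements searched were the serum response element and the kappa-B site (by their usual consensus), the cyclic AMP response element TGACGTCA, the AP-1 site TGAGTCA or TGACTCA, the E-box CACGTG and the T-box half-site AGGTGTGA. None of these contains another. The kappa-B site was in 13.4% of genes called higher, 23.5% of genes called lower and 12% of all. The E-box was in 14.1%, 11.1% and 12.2%. The rest were each in under 5% of the genes of any of these 3 sets.

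Of 28 tested germinal centre identity genes 3 fell and 0 rose: Hmces (listed as 8430410A17Rik), which shields abasic sites in DNA, Nuggc (listed as Gm600), a nuclear GTPase of germinal centre B cells, and Rgs13. Hmces (chr6:87913907-87936619) was at 577, 519, 509, 555 and 510 TPM in controls and at 369, 377, 315, 404 and 364 TPM in mutants, a change of -0.55 (SE 0.07, adjusted p = 0.00165 by limma, all 10 reduced fits). Bcl6 was at 340 ± 24.8 TPM in controls and 278 ± 31.2 TPM in mutants (SD, n = 5 each) and was not called (adjusted p = 0.0614 by limma). In the dark zone list 14 of 15 members were below 0 and 1, Cxcr4, was called; Foxo1 had a change of -0.17 (adjusted p = 0.292). Of 38 B cell receptor signalling genes 1 was called, near the 2.72% of all genes: Cd79b, lower, from 3555 ± 199 to 2856 ± 347 TPM. It was called in 3 of 10 reduced fits. With median-of-ratios scaling and in the 20-library fit (adjusted p = 0.151 by limma) Cd79b was not called. Cholesterol and fatty acid synthesis had 30 of 33 members below 0, a median of -0.10 and 0 called.

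Other falls were spread over single genes. Cdk5rap1, which modifies mitochondrial transfer RNA, was at 30.6, 27.9, 32.8, 30.8 and 32.6 TPM in controls and at 16.7, 14.9, 17.2, 16.7 and 15.8 TPM in mutants, with the second smallest adjusted p of all genes (change -0.89, SE 0.08, adjusted p = 0.000119 by limma). The reads listed under Gh, the growth hormone gene (chr11:106300261-106303703), fell by 0.88. The annotated interval of Cd79b, which was also called lower, lies 7638 bases beyond that of Gh on the same chromosome. Pipox, an oxidase of pipecolic acid and sarcosine, changed by -0.70, Cxxc5 by -0.60 and Fgf11 by -0.63. Of 23 antioxidant genes 2 fell, catalase (Cat) from 266 ± 10.1 to 194 ± 19.1 TPM and Sepp1, the secreted selenium carrier, from 57.1 ± 4.75 to 39.2 ± 4.45 TPM (SD, n = 5 each). Eif2ak3, the stress kinase PERK, fell from 93.1 ± 4.29 to 67.1 ± 3.98 TPM. All 3 passed in all 10 reduced fits. Of these, the 20-library fit called Sepp1 but not Cat (adjusted p = 0.0502 by limma) or Eif2ak3 (0.308).

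Of the 49 functional lists, 10 had 0 members called. They included oxidative phosphorylation (76 tested members), mitochondrial ribosomal proteins (76), splicing factors (51), lysosome genes (30) and glycolysis (23). In all, 114 of the 302 called genes were members of a functional list and 188 were in none.

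**Figure D4:**
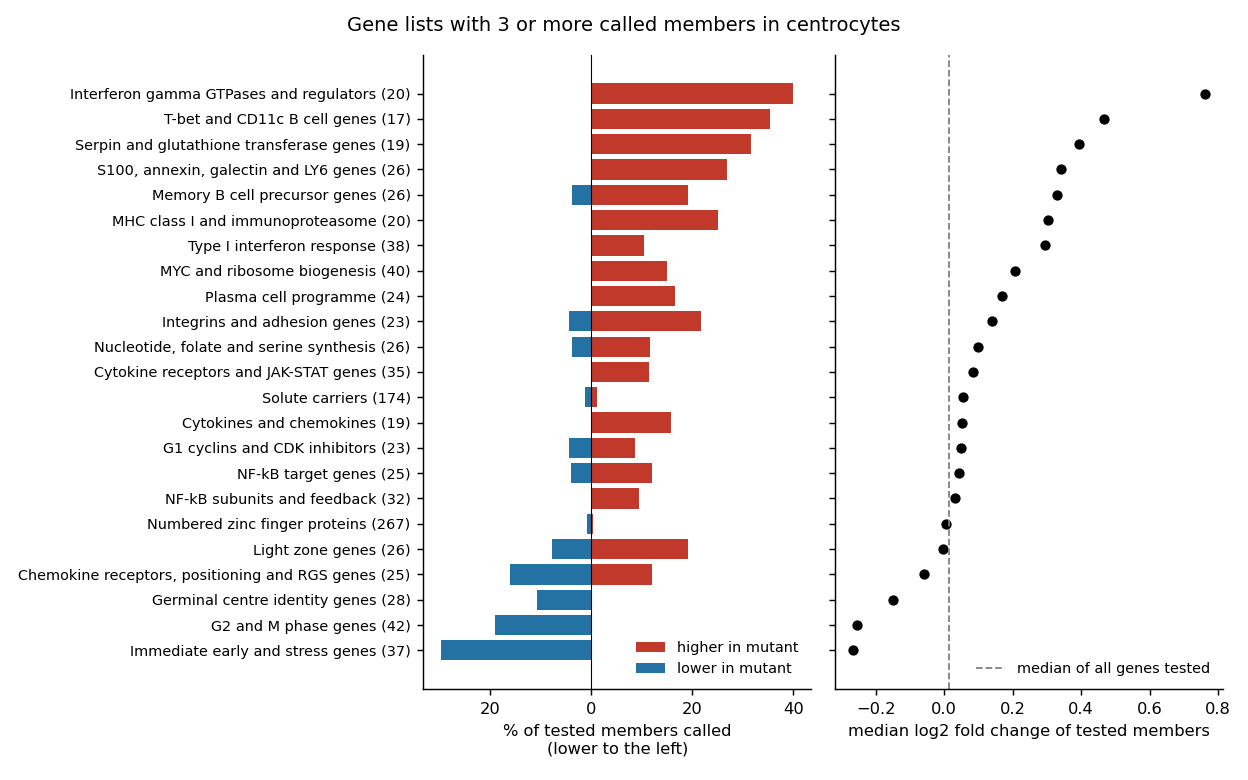
Left, the share of tested members (number in brackets) called higher (red) or lower (blue) in mutant centrocytes for lists with 3 or more called members; right, the median log2 fold change of the tested members, with the median of all genes as a dashed line. The interferon gamma GTPase list is highest with 8 of 20 members and a median of 0.76, and the immediate early list lowest with 11 of 37 and -0.27.

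Mutant libraries did not depart from the controls to the same extent. For each of the 302 called genes the mutant library nearest to the control mean was found. It was library 4 in 160 genes (53%), library 5 in 74 (24.5%), library 1 in 38 (12.6%), and libraries 2 and 3 in 15 each (4.97%). The median distance from the control mean was 0.35 on the log2 scale in library 4, 0.46 in library 5, 0.57 in library 1, 0.66 in library 3 and 0.68 in library 2. Among controls, library 2 was nearest to the mutant mean most often, in 123 genes (40.7%). These genes were called on the same libraries, so the order is a description. Markers of other cells moved with it in part. Mutant library 4 had the lowest sums of the 5 mutants for erythroid (233 TPM), myeloid (178), eosinophil (7.19), NK (3.40) and marginal zone and B1 markers (833). It was not lowest for dendritic (42.9 TPM), stromal (91.8) or naive and follicular markers (1321). Mutant library 5 was lowest for dendritic (35.4 TPM) and naive and follicular markers (1257), and mutant library 2 for stromal markers (83.9). Control library 2 had the highest sums of the 5 controls for NK (9.04 TPM), eosinophil (9.70), dendritic (46.7), stromal (110.5), myeloid (393), marginal zone and B1 (1059) and naive and follicular markers (1475). Its erythroid sum was the lowest of the controls (42.7 TPM), although the median was 148 TPM in controls and 365 TPM in mutants. The germinal centre B cell sum was highest of the mutants in library 4 (9862 TPM) and lowest of the controls in library 2 (9939 TPM). The part of these markers in the order was not tested.

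The same allele was measured in centroblasts. All 14 leading rises and 13 of the 14 leading falls in centrocytes had the same sign there with all 20 libraries, Rgs13 being the exception (0.05). Without centroblast mutant libraries 4 and 5 the exception was another gene: Rgs13 had a change of -0.33 and Pipox of 0.12. In the 20-library fit, where 4.29% of genes were called in centroblasts, 5 of the 14 rises and 8 of the 14 falls were called. Those 2 libraries stand apart from the others, with ribosomal proteins at 13% and 17.6% of TPM. The share was 8.73% to 10.4% in the other centroblast libraries and 7.67% to 9.18% in centrocytes. Without centroblast mutants 4 and 5 the numbers called were 8 and 8, with 3.6% of genes called. Both fits took part of their spread from the centrocyte libraries. The 10 centroblast libraries fitted alone, these 2 included, gave 27 calls among 10693 genes (0.253%), against 2.72% for the centrocyte libraries fitted alone. Xlr was at 0.136 ± 0.206 and 6.71 ± 4.21 TPM in control and mutant centrocytes and at 0.124 ± 0.178 and 8.60 ± 3.62 TPM in centroblasts (SD, n = 5 each). Fos was at 258 ± 32.5 and 122 ± 32.4 TPM in centrocytes and at 176 ± 31.0 and 70.2 ± 18.4 TPM in centroblasts. By contrast with these, Itgax was at 0.298 ± 0.0717 and 0.921 ± 0.651 TPM in control and mutant centroblasts, and Gbp7 at 0.209 ± 0.233 and 0.502 ± 0.391 TPM, below their levels in centrocytes of either genotype.

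The difference of the genotype effect between the cell types was called for 2 of 11386 genes (0.0176%; 1322 had an unadjusted p under 0.05). The median difference over all genes was 0.18 with all 20 libraries, 0.04 without centroblast mutants 4 and 5 and -0.01 after median-of-ratios scaling, so values are best read against these shifts. Hmces differed by -0.71 (SE 0.11) and Pafah1b3, part of an enzyme that inactivates platelet-activating factor, by -0.75 (SE 0.12), both with an adjusted p of 0.0241 by limma. Pafah1b3 fell in centrocytes from 183 ± 19.1 to 130 ± 7.65 TPM and was at 758 ± 66.7 and 915 ± 99.5 TPM in control and mutant centroblasts (SD, n = 5 each). Both calls were kept without centroblast mutants 4 and 5, where 4 genes were called (0.0352%), and both were lost after median-of-ratios scaling and in a fit with no trend or robust step. With 1 library left out, 0 genes were called without centrocyte control 1, centrocyte mutants 1, 2 or 5, centroblast controls 1, 2 or 5, or centroblast mutants 2 or 4, and 1 without centrocyte control 3. Il27 came next, with a difference of 1.60 (adjusted p = 0.0592): its mean in mutant centroblasts was 0.119 TPM. Ccbp2 (an atypical chemokine receptor, now Ackr2), Sdc4, Cd97, H2afv, Snhg9 and Smad3 followed with adjusted p from 0.219 to 0.322. None of the 28 leading centrocyte genes was called for the difference with all 20 libraries, and 1 was without centroblast mutants 4 and 5: Cxcr4, by -0.59 (adjusted p = 0.0281). A difference that was not called is not shown to be absent.

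**Figure D5:**
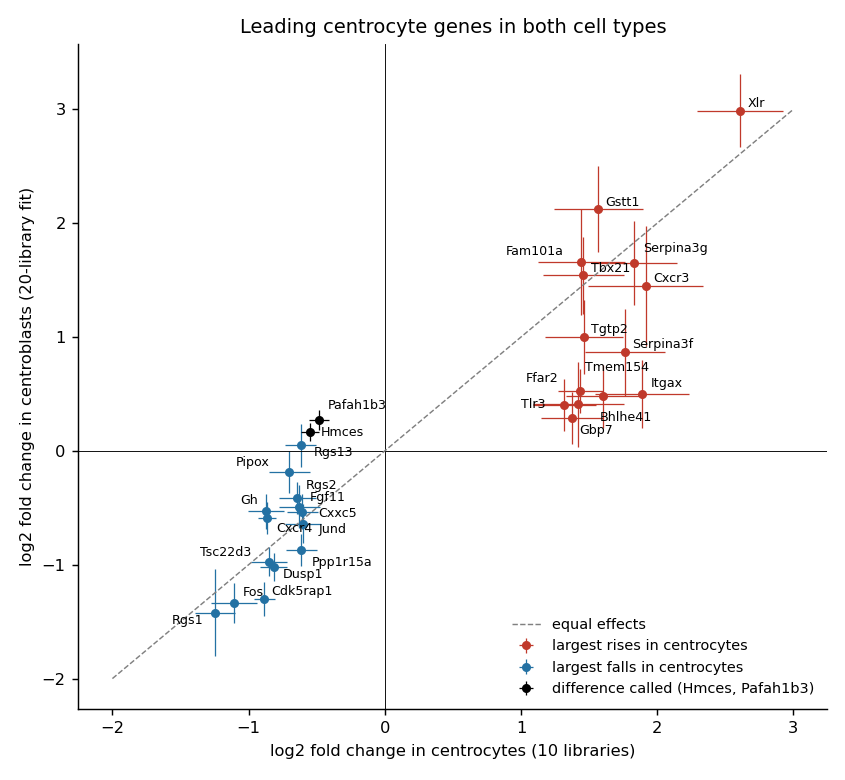
Log2 fold change with its SE for the 28 leading centrocyte genes and for Hmces and Pafah1b3, in centrocytes (horizontal axis, 10-library fit) and centroblasts (vertical axis, 20-library fit); the dashed line marks equal effects. All 14 rises and 13 of 14 falls have the same sign in both, with Rgs13 the exception (without centroblast mutants 4 and 5 it is Pipox), while Hmces and Pafah1b3 are below 0 in centrocytes and above 0 in centroblasts.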

How the data were processed

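RNA of sorted centrocytes and centroblasts was sequenced in 20 libraries, 5 per genotype and cell type, with a TruSeq stranded mRNA kit per the labels' protocols. The deposited values are TPM per gene symbol, computed by the authors; STAR and mm10 are named in the submitters' processing notes, and how TPM was counted is not given in the sources used here. Each library lists 23382 symbols, of which 20916 matched a current RefSeq symbol, 2207 an older one and 259 none. All value columns were used.

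Values were transformed to log2(TPM + 1). The test was limma 3.58.1 (R 4.3.3) with a mean-variance trend and robust moderation on the 10 centrocyte libraries, for genes of at least 1 TPM in at least 5 of them, with Benjamini-Hochberg adjustment. The difference of the genotype effect between the cell types was a contrast in the same model over all 20 libraries. The script was tested on simulated data. Groups follow the sample titles. Depth is unknown, so the number of libraries limits the precision.

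The genes and lists were chosen with earlier results of these data known, including the counts of both fits, 302 and 137. Named genes were Myd88 and sort markers, the 14 largest called rises and falls without overlap and with at least 5 TPM in a group, up to 4 called members per list by adjusted p, a set of germinal centre and signalling genes whether called or not, and the 8 genes ranked first by adjusted p for the difference. Receptor segments, numbered gene models, small RNA and Y-linked genes were left out of the largest rises, falls and differences. Further called members of a list, marker genes and the genes beside a named gene were chosen after their values were seen.

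Alternatives were another pseudocount (0.1 TPM), other filters (none, 5 TPM), median-of-ratios scaling, no trend or robust step, array weights, a replicate block, all 20 or 18 libraries, and leaving out each library. Promoter windows and gene positions come from RefSeq (GRCm38.p6). Lists held 2399 members, of which 2396 were found. Some members of the lists are counted but not reported here by name.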

Additional observations from a re-analysis of the deposited data

Results flagged for a closer look

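In 8 of 286 groups of 5 libraries tested (2.8%), 1 library lay apart from the other 4 by Dixon's test; chance gives about 1 in 20. Tbx21 was at 72.49 TPM in mutant library 3 and at 35.1 to 41.7 TPM in the other mutants. Tlr3 was at 5.857 TPM in control library 2 (1.99 to 2.73 TPM in the other controls), and Traf1 at 134.3 TPM in the same library (115 to 119 TPM). The summed stroma and endothelium markers were also highest in control library 2, at 110.5 TPM against 75.9 to 82.3 TPM. Gh was at 34.88 TPM in control library 1 (27.8 to 28.4 TPM in the others) and Smad3 at 4.605 TPM in that library (6.92 to 7.77 TPM). Cat was at 248.7 TPM in control library 3 (268 to 274 TPM). Zfp365 was at 2.329 TPM in mutant library 5 (4.86 to 5.21 TPM).

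The genotype effect differed between centrocytes and centroblasts for Hmces, listed as 8430410A17Rik, by -0.7137 on the log2 scale, and for Pafah1b3 by -0.7533 (adjusted p = 0.0241 for both, limma, 5 libraries per group).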

How the results depend on the processing

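The 302 calls of the centrocyte comparison became 146 with no filter, 123 without the trend and robust steps, 137 with all 20 libraries, and 56 to 415 with 1 library left out, lowest without control 4 and highest without mutant 4. The cause was not tested. Other alternatives gave 265 to 387. Replicate numbers are shared between genotypes, and the deviations of same-numbered libraries correlated by 0.0432 to 0.194 (mean 0.118, against -0.0295 for other numbers). Every pair was above 0, but only 3 of 5 passed the 0.1 required of every pair, and 3 of 10 libraries correlated best with their own number, so the numbers were not taken as pairs; the replicate block gave 664 calls for the centrocyte comparison. The 2 calls of the difference became 0 with median-of-ratios scaling (1214 genes at an unadjusted p under 0.05), 0 without trend and robust steps (1250), 0 with the replicate block (1766), 9 with array weights, 4 with 18 libraries, and 0 to 7 with 1 library left out. Of 113 called genes that are named, 65 lost the call with all 20 libraries, 66 without trend and robust steps, 57 with no filter and 8 to 83 with 1 library left out. Only Ccbp2, which was not called in centrocytes (0.01), changed sign among genes named by the stated rule: -0.0178 with median-of-ratios scaling, -0.0331 with array weights, and -0.0613 (without mutant 3) to 0.0583 (without mutant 2) with 1 library left out. Depth is unknown, and values near 1 TPM are the least certain.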

Other observations

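Neighbouring genes shared some changes. These groups were chosen after their values were seen and carry no test of their own. Within 200 kb of Gstt1 on chromosome 10, Gstt2 rose from 98.4 ± 10.8 to 178 ± 49.6 TPM, Ddt, a tautomerase, from 221 ± 22.2 to 314 ± 53.4 TPM, and Mif, the cytokine of the same family, from 260 ± 24.2 to 336 ± 28.8 TPM (SD, n = 5 each; adjusted p of 0.03, 0.0327 and 0.0227 by limma). Gstt3 had a change of 0.76 and was not called (adjusted p = 0.113). The flanking genes Cabin1 and Smarcb1 had changes of 0.14 and -0.01 (adjusted p of 0.563 and 0.95).

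Rgs2, Rgs13 and Rgs1, which all fell, are neighbours on chromosome 1. The next tested genes on 1 side, Uchl5, Glrx2 and Cdc73, had changes of 0.10, 0.01 and 0.03 and were not called (adjusted p of 0.364, 0.987 and 0.901).

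Of 8 tested GIMAP genes, GTPases of lymphocytes that lie in a cluster, 3 rose: Gimap4 by 0.76, Gimap7 by 0.62 and Gimap5 by 0.32 (adjusted p of 0.0195, 0.0476 and 0.0451 by limma, 5 libraries per group). Gimap9 had a change of -0.08 (adjusted p = 0.55).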
